A study of Mus musculus with 8 samples.

Results

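The ectodysplasin signalling genes described here are Eda, Edar, Edaradd, Eda2r, Tnfrsf19 and Traf6, which are 6 of the 43629 Ensembl genes counted in lower first molars of mouse embryos at E18.5. They were chosen by name, with earlier results of these data known, and each symbol matched a single Ensembl identifier in the mouse annotation. RNA from 4 K14Cre;Jagged1fl/fl embryos (mutant) and 4 Jagged1fl/fl embryos (control) was sequenced, to ask how loss of the Notch ligand Jagged1 in the dental epithelium alters gene expression in the tooth germ. By the sample labels both groups carry the floxed Jagged1 allele on both chromosomes and only the mutants carry Cre, whereas the published account calls the controls wild type, so the control genotype is given as labelled. Cre is a transgene that the keratin 14 promoter drives in epithelial cells, and mesenchymal Jagged1 is left intact. Each sample pools both lower first molars of 1 embryo, and the sex and litter of each embryo are not given. Each embryo is a replicate, and the tests judge a group difference against the spread between these embryos. Any dependence between littermates could not be modelled.

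Ectodysplasin is a ligand of the tumour necrosis factor (TNF) family that is cut from the cell surface and binds its receptor Edar on epithelial cells. Edar recruits the death domain adaptor Edaradd, which joins Traf6 and the Tab and Tak1 proteins and releases the transcription factor NF-kB. A second splice form of the ligand binds Eda2r instead, and Tnfrsf19 (also called Troy) is a related receptor that can signal through Traf6. Loss of Eda, Edar or Edaradd gives the tabby, downless and crinkled mice, which have small molars with fused or missing cusps, and in humans it causes hypohidrotic ectodermal dysplasia. In the molar Edar marks the enamel knots, the signalling centres that place the cusps.

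Library totals ran from 17327224 to 29792467 counts. The deleted gene Jag1 had 95.2 to 104 CPM (counts scaled to library size) in controls and 33.97 to 57.1 CPM in mutants, a log2 fold change of -1.19 (standard error, SE, 0.14, edgeR quasi-likelihood adjusted p = 0.00517). All 6 dental epithelium markers were present, with a summed level of 4654 to 5368 CPM in controls and 5483 to 8078 CPM in mutants. Several libraries stood apart. In mutant K14J26 9.57% of all counts fell on the enamel matrix genes Amelx, Ambn and Enam, against 0.0559% to 2.47% in the other 7 embryos. Skeletal muscle markers summed to 372 CPM in control J6 and 182 CPM in control J7, and to 4.65 to 17.4 CPM in the other 6. The markers of cornified oral epithelium summed to 682 CPM in mutant K14J28 and to 19.7 to 141 CPM elsewhere, while Xist was at 1928 CPM in mutant K14J28 and 1467 CPM in mutant K14J29 and at most 1.09 CPM in the rest. Among the other marker lists, edgeR called 4 of 5 ameloblast, 2 of 3 odontoblast and 2 of 3 bone genes higher in mutants (adjusted p under 0.05). The uncalled genes of these lists, Klk4, Dmp1 and Ibsp, had log2 fold changes of 3.52, 0.59 and 0.34. Of 4 dental mesenchyme genes edgeR called 1 higher and 2 lower. All 6 skeletal muscle genes had log2 fold changes between -4.90 and -2.71, with 1 called by edgeR, 5 by DESeq2 and 5 at an unadjusted p under 0.05. Over all genes these shares were 16.1%, 23.2% and 34.9%. Of the 6 dental epithelium genes edgeR called 1 and DESeq2 5. Of the 22 tested genes of the 7 lists for endothelium, red blood cells, macrophages, Schwann cells, cornified epithelium, hair follicle and cartilage, edgeR called 0, with 1 at an unadjusted p under 0.05 and 1 called by DESeq2.

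All 6 ectodysplasin genes were expressed above the count filter, with at least 50 counts of Eda2r and 82 counts of Edar in every embryo. Eda2r rose in K14Cre;Jagged1fl/fl molars, to 1.70 times the control level, whereas Traf6 and Tnfrsf19 fell to 0.763 and 0.778 of it. The ligand Eda had means of 16.2 and 16.1 CPM, and Edar and Edaradd had lower means in mutants without passing the adjusted threshold. Thus 3 of 6 genes had an adjusted p under 0.05, against 16.1% of the 17129 genes tested, with 1 higher where 9.52% of all genes were higher and 2 lower where 6.61% were lower. The study selected genes by an unadjusted p up to 0.05 and a fold change of 0.5 or more, which is read here as the absolute log2 fold change because its scale is not given. By those criteria 2 of 6 genes passed, against 14.2% of all genes: Eda2r among the 8.33% that were higher and Edaradd among the 5.85% that were lower. Control and mutant embryos were fully separate for 3 of 6, against 24.2% of all genes (12.6% with mutants above and 11.6% with mutants below). With so few genes, chosen with earlier results of these data known, these shares are read as a description only. In whole molars fewer cells of a type and less RNA per cell cannot be told apart.

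**Figure D1:**
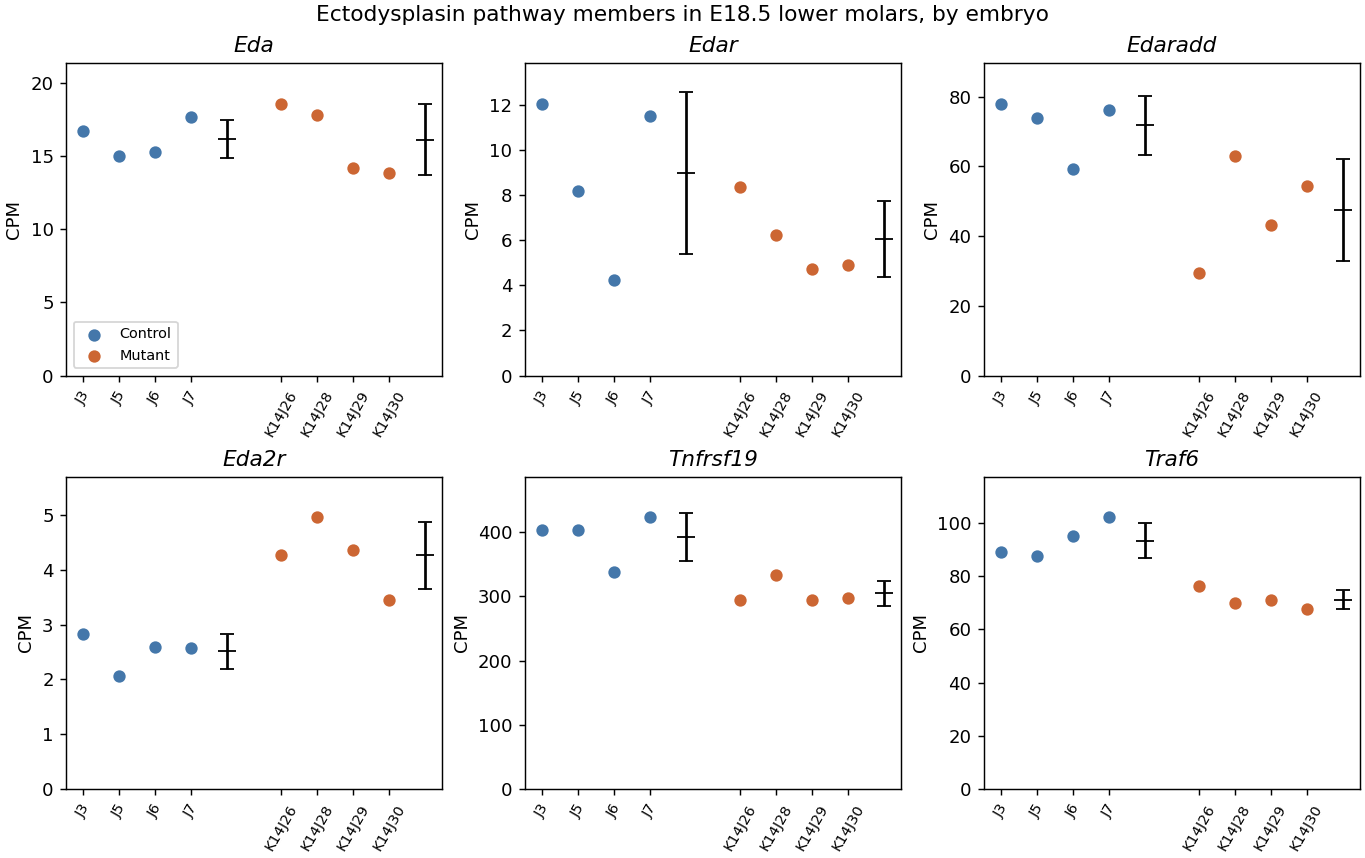
Expression of the 6 ectodysplasin genes in CPM (vertical axes, from 0) in each of 4 control and 4 mutant embryos (points), with the mean and SD of each group (bar and whiskers). All 4 mutants lie above all 4 controls for Eda2r and below them for Tnfrsf19 and Traf6, while the groups overlap for Eda, Edar and Edaradd.

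Eda, the ligand (ENSMUSG00000059327, chromosome X from 99975606 to 100400762, GRCm38, as for the other genes), had 16.7, 15, 15.3 and 17.7 CPM in controls J3, J5, J6 and J7. Its levels in mutants K14J26, K14J28, K14J29 and K14J30 were 18.6, 17.8, 14.2 and 13.9 CPM. The highest and the lowest embryo of all 8 were both mutants, and the control values lay between them. The group means were 16.2 ± 1.27 and 16.1 ± 2.42 CPM (SD, n = 4 each), and the log2 fold change was -0.01 (SE 0.12, edgeR quasi-likelihood adjusted p = 0.977). The 95% interval of that value ran from -0.27 to 0.26. The counts are per gene and cannot separate the splice form that binds Edar from the form that binds Eda2r. Eda spans 425157 bases with 12 annotated transcripts, and its introns hold a microRNA gene, Mir676, and 3 processed pseudogenes, none of which shares exon sequence with it and each of which had at most 3 counts in any embryo.

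Edar, the receptor (ENSMUSG00000003227, chromosome 10 from 58600789 to 58675654), was the most variable of the 6 genes among controls relative to its mean, with 12.1, 8.20, 4.25 and 11.5 CPM in J3, J5, J6 and J7. The mutants K14J26, K14J28, K14J29 and K14J30 had 8.36, 6.22, 4.75 and 4.93 CPM. Controls J3 and J7 were above every mutant, J5 lay just under K14J26, and J6 had the lowest value of all 8 embryos. The means of 9.01 ± 3.6 and 6.06 ± 1.67 CPM (SD, n = 4 each) gave a log2 fold change of -0.58 (SE 0.31, edgeR quasi-likelihood adjusted p = 0.220). The 95% interval of the log2 fold change, from -1.28 to 0.13, includes 0. Control J6 was also the control with the most muscle transcript and the highest enamel marker sum. The log2 fold change was -0.84 with the skeletal muscle score in the model and -0.47 with the enamel score (adjusted p = 0.184 and 0.636). Leaving out each embryo in turn gave values from -0.81 without J6 (adjusted p = 0.0610) to -0.41 without J3 (adjusted p = 0.443).

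Edaradd, the adaptor that the death domain of Edar binds (ENSMUSG00000095105, chromosome 13 from 12472632 to 12520438), had 78.0, 73.8, 59.4 and 76.2 CPM in controls J3, J5, J6 and J7. Among mutants, K14J26, K14J28, K14J29 and K14J30 stood at 29.4, 63.0, 43.1 and 54.4 CPM. Mutant K14J28 was above control J6, the other 3 mutants were below every control, and K14J26 was far below the rest. The means were 71.9 ± 8.49 and 47.5 ± 14.6 CPM (SD, n = 4 each), with a log2 fold change of -0.60 (SE 0.21, unadjusted p = 0.0168, edgeR quasi-likelihood adjusted p = 0.0754). Its 95% interval ran from -1.06 to -0.13. Without K14J28 the log2 fold change was -0.77 with an adjusted p of 0.0222, and DESeq2 gave -0.60 with an adjusted p of 0.0245, so the call depended on 1 library and on the test.

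Among mutants the order of Edaradd was the reverse of that of the enamel genes. Amelx, the gene of the main enamel matrix protein, was at 60581 CPM in K14J26, followed by K14J29 at 14513, K14J30 at 6668 and K14J28 at 2465 CPM, and Edaradd increased in that order. Among controls, J6 had the highest Amelx, 2407 CPM, and the lowest Edaradd, but the other 3 controls did not keep the reverse order. With a score of 5 enamel genes in the model, the log2 fold change of Edaradd was 0.10 (edgeR quasi-likelihood adjusted p = 0.635), against -0.60 without it. The score ran with the genotype, from 4.74 to 6.88 in controls and from 6.95 to 11.8 in mutants (mean log2 CPM of 5 genes), so the covariate and the genotype can be told apart only in part.

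Traf6, a ubiquitin ligase that carries the signal of Edaradd, Tnfrsf19 and several other receptors to NF-kB (ENSMUSG00000027164, chromosome 2 from 101678429 to 101701669), had 88.9, 87.4, 94.9 and 102 CPM in controls J3, J5, J6 and J7. The mutants K14J26, K14J28, K14J29 and K14J30 had 76.3, 69.7, 71.2 and 67.6 CPM. All 4 mutants were below all 4 controls, and the highest mutant was K14J26, the library with the most enamel transcript. Traf6 fell from 93.3 ± 6.66 to 71.2 ± 3.71 CPM (SD, n = 4 each), with a log2 fold change of -0.39 (SE 0.07, edgeR quasi-likelihood adjusted p = 0.0130). The difference was -23.7%. Its call held in 7 of the 8 fits that left out an embryo, and without K14J29 the adjusted p was 0.05004 at a log2 fold change of -0.39. The adjusted p was 0.0518, 0.0729 and 0.121 with the enamel, skeletal muscle and epithelial score in the model, and 0.144 without J6 and J7.

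Eda2r, the receptor of the second ligand form and a known target of p53 (ENSMUSG00000034457, chromosome X from 97333840 to 97377216), had 2.82, 2.06, 2.59 and 2.57 CPM in controls J3, J5, J6 and J7, from 50 to 76 counts. Among mutants, K14J26, K14J28, K14J29 and K14J30 reached 4.28, 4.95, 4.36 and 3.45 CPM, from 89 to 149 counts. All 4 mutants were above all 4 controls. Eda2r rose from 2.51 ± 0.321 to 4.26 ± 0.618 CPM (SD, n = 4 each), with a log2 fold change of 0.77 (SE 0.17, edgeR quasi-likelihood adjusted p = 0.0210). It was the one gene of the 6 that passed both the adjusted threshold and the criteria of the study. The adjusted p was 0.0511 without J3, 0.0607 without J5, 0.0643 without J7 and 0.0649 without K14J29, and under 0.05 when any of the other 4 embryos was left out. With the enamel, skeletal muscle and epithelial score in the model it was 0.109, 0.0967 and 0.146, and without J6 and J7 it was 0.158. Eda and Eda2r are both X-linked. Xist, which is transcribed in female cells, was high in 2 mutants and in no control, so the groups appear unbalanced in sex. Without those 2 embryos Eda2r had a log2 fold change of 0.61 with an adjusted p of 0.0808, and K14J26 and K14J30, both low in Xist, were each above every control.

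Tnfrsf19 (ENSMUSG00000060548, chromosome 14 from 60963875 to 61046490), an epithelial receptor of the same branch of the TNF receptor family, was by far the most abundant of the 6 genes. It had 403, 404, 338 and 423 CPM in controls J3, J5, J6 and J7, and 295, 334, 294 and 298 CPM in mutants K14J26, K14J28, K14J29 and K14J30. The groups did not overlap, but the lowest control, J6, and the highest mutant, K14J28, were close to each other. Tnfrsf19 fell from 392 ± 37.4 to 305 ± 19.2 CPM (SD, n = 4 each), with a log2 fold change of -0.36 (SE 0.08, edgeR quasi-likelihood adjusted p = 0.0233). Its adjusted p became 0.0683 without J3, 0.0618 without J5, 0.0706 without J7 and 0.0745 without K14J29. With the score of enamel genes in the model, the log2 fold change was -0.19 (adjusted p = 0.316). The adjusted p was 0.0735 with the skeletal muscle score, 0.407 with the epithelial score and 0.132 without J6 and J7.

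**Figure D2:**
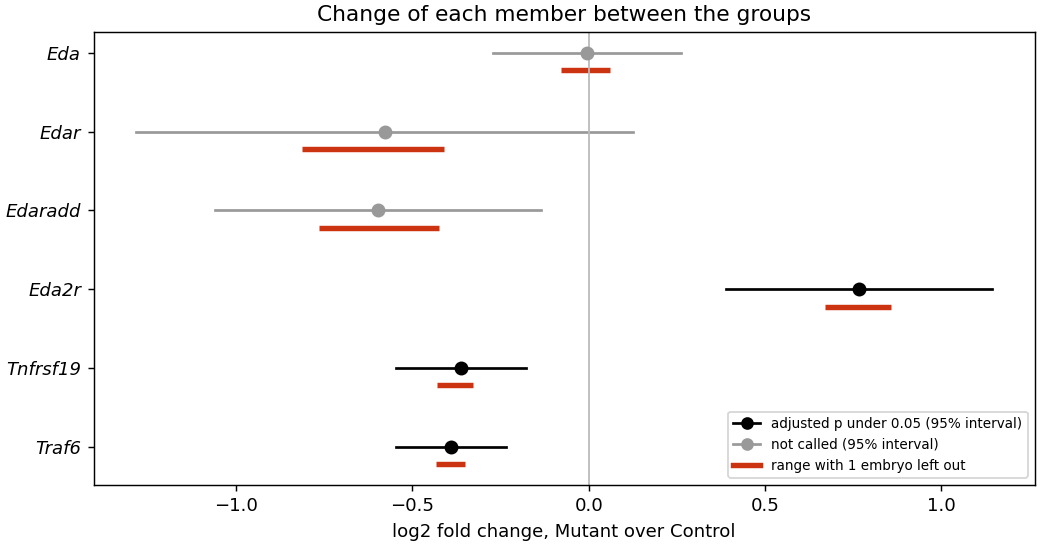
Log2 fold change of each gene, mutant over control (horizontal axis), with its 95% interval from edgeR's quasi-likelihood fit (thin line) and, beneath it, the range of the estimate when each of the 8 embryos was left out in turn (red bar). Black points have an adjusted p under 0.05; the interval of Eda reaches from -0.27 to 0.26, and that of Edar reaches from -1.28 to 0.13.

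The levels of the 6 genes were compared with each other only after division by exon length (RPKM, counts scaled to library size and to kilobases of exon). In controls Tnfrsf19 stood at 82.7 ± 7.90 RPKM, which put it above 97.3% of the genes tested. Traf6, at 11.8 ± 0.845, and Edaradd, at 10.8 ± 1.27, followed with overlapping ranges. Edar, at 2.48 ± 0.990, and Eda, at 2.37 ± 0.186, also overlapped, and Eda2r was lowest at 0.426 ± 0.0545 (SD, n = 4 for each). In mutants the order was the same but for Eda, at 2.36 ± 0.355 RPKM, and Edar, at 1.67 ± 0.458, which changed places with overlapping ranges. In every embryo the transcript of the adaptor was thus more abundant in the whole molars than that of its receptor. The ratio of Edaradd to Edar in RPKM was 3.53 to 7.62 in controls and 1.92 to 6.03 in mutants. The lowest of these ratios was in K14J26.

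**Figure D3:**
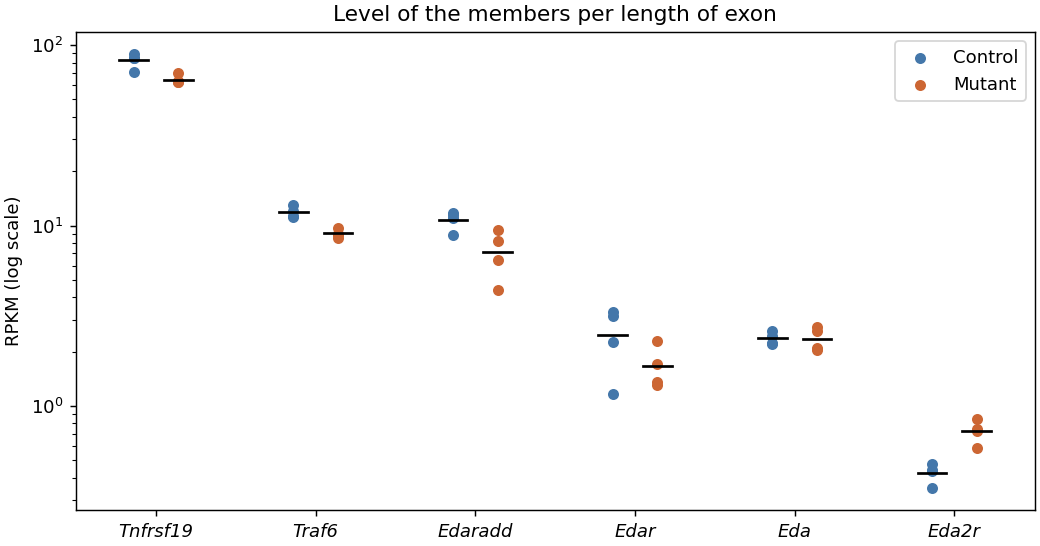
Level of each gene per length of exon in RPKM (vertical log axis) in 4 control and 4 mutant embryos (points), with the group mean (bar). Tnfrsf19 lies above the other genes in both groups, and Eda2r lies lowest, at 0.350 to 0.479 RPKM in controls and 0.586 to 0.841 in mutants.

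Ratios of genes within an embryo do not depend on how libraries are scaled. The ratio of Edar to Eda in RPKM was 1.35, 1.03, 0.522 and 1.22 in controls J3, J5, J6 and J7. In mutants K14J26, K14J28, K14J29 and K14J30 it was 0.844, 0.655, 0.626 and 0.666. Control J6 was the lowest of all and the other 3 controls were above every mutant. The ratio of Eda2r to Edar was 0.144, 0.155, 0.376 and 0.138 in the same order of controls and 0.316, 0.492, 0.568 and 0.433 in mutants, so that J6 again fell among the mutants while the other 3 controls were below all of them.

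Edar and Edaradd act in the epithelium, so their levels were also set against 4 epithelial genes, the keratins Krt14 and Krt5 and the adhesion genes Epcam and Cdh1. Relative to the mean of these 4 genes, the log2 level of Edaradd was lower by 0.93 in mutants (the values were -3.28 ± 0.26 and -4.21 ± 0.63, SD, n = 4 each; exact permutation test, two-sided, p = 0.0571, adjusted over 3 genes 0.143). For Edar the difference was -0.77 and for Eda -0.29 (p = 0.143 for each by the same exact test). The smallest p that 4 against 4 allow is 0.0286. The epithelial genes differed in direction among themselves. Krt14 rose from 850 to 1648 CPM (log2 fold change 0.96, edgeR quasi-likelihood adjusted p = 0.0217), with a call in 4 of the 8 fits that left out an embryo and a value of 0.16 with the enamel score in the model. Epcam went from 234 to 164 CPM (-0.51, adjusted p = 0.0527), Cdh1 from 419 to 581 CPM (0.47, adjusted p = 0.0546) and Krt5 from 2832 to 3516 CPM (0.31, adjusted p = 0.0650; edgeR's quasi-likelihood test).

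With Epcam and Cdh1 only, the difference was -0.60 for Edaradd, -0.45 for Edar and 0.03 for Eda (exact permutation test, two-sided, p = 0.0571, 0.314 and 0.886). Differences relative to each gene alone were added after the values were seen and are given without a test. For Edaradd they were -1.55 relative to Krt14, -1.10 relative to Cdh1, -0.95 relative to Krt5 and -0.11 relative to Epcam. For Edar they were -1.40, -0.95, -0.80 and 0.05 in the same order. Epcam thus stood apart from the other 3 references for both genes.

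**Figure D4:**
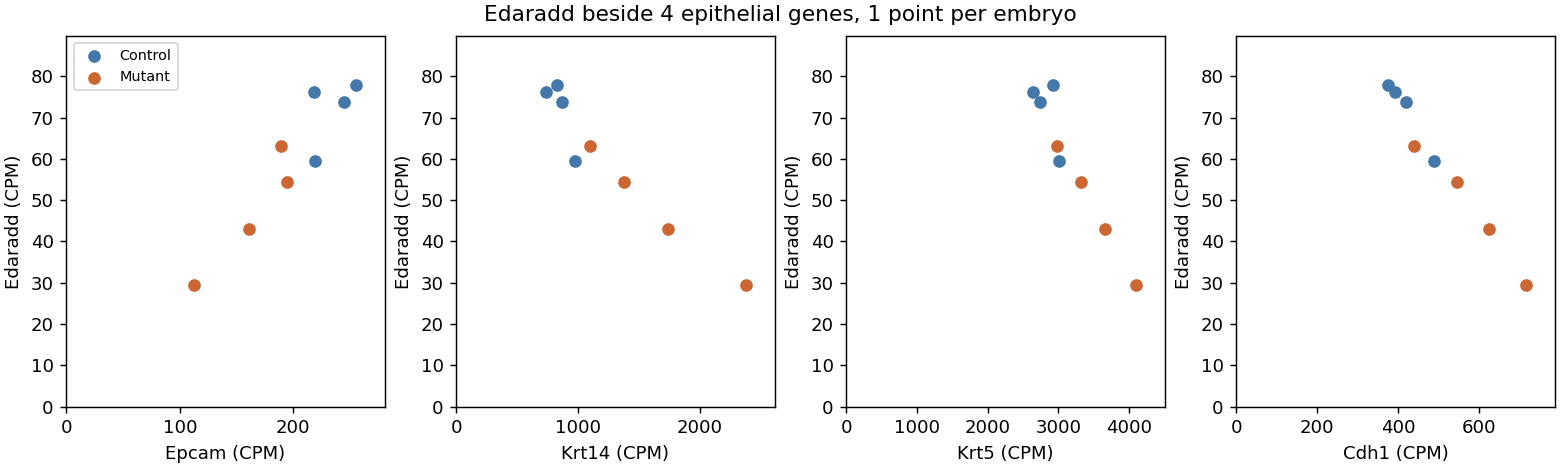
Level of Edaradd in CPM (vertical axis, from 0) against that of Epcam, Krt14, Krt5 and Cdh1 in CPM (horizontal axes, from 0), with 1 point per embryo. Mutant K14J26, with 29.4 CPM of Edaradd, has the least Epcam (113 CPM) and the most Krt14 (2375 CPM).

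The relay from Edaradd and Traf6 to NF-kB was represented by 19 genes, all of them tested. Of these, 1 was higher and 1 was lower with an adjusted p under 0.05, where 16.1% of all genes had one, with a median log2 fold change of 0.11, against 0.01 over all tested genes. DESeq2 called 3 of them, against 23.2% of all genes, and 6 had an unadjusted p under 0.05, against 34.9%. Ikbkb, the catalytic kinase subunit that releases canonical NF-kB, rose from 85.1 ± 1.57 to 101 ± 7.65 CPM (SD, n = 4 each; log2 fold change 0.25, adjusted p = 0.0345). This call was lost on leaving out any of 5 of the 8 embryos and with scaling by library size only, where the log2 fold change was 0.14. Map3k14, the kinase of the non-canonical branch, fell from 5.65 ± 0.986 to 3.93 ± 0.388 CPM (log2 fold change -0.53, adjusted p = 0.0493), and its adjusted p was under 0.05 in 1 of the 8 such fits. With the enamel score in the model Ikbkb was at 0.12 and Map3k14 at -0.24, neither called. The NF-kB subunits Rela and Nfkb1 were at 42.8 and 54.2 CPM in controls and at 46.1 and 58.2 CPM in mutants (adjusted p = 0.257 and 0.394). Tak1, encoded by Map3k7, stood at 157 and 155 CPM (adjusted p = 0.834). The feedback inhibitors Nfkbia and Tnfaip3, which NF-kB itself induces, were at 0.06 and 0.18 on the log2 scale (adjusted p = 0.678 and 0.249; edgeR's quasi-likelihood test throughout).

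Among the other 6 TRAF adaptors, Traf4 was the 1 gene called, also by DESeq2, and 1 had an unadjusted p under 0.05, where the shares of all genes were 16.1%, 23.2% and 34.9%. Traf4 fell from 50.7 ± 4.201 to 35.0 ± 1.59 CPM (SD, n = 4 each; log2 fold change -0.53, SE 0.08, edgeR quasi-likelihood adjusted p = 0.00768), with every mutant below every control, and kept its call in all 8 fits that left out an embryo. With the enamel score in the model its value was -0.44 (adjusted p = 0.0640), and its adjusted p was 0.0516 with the skeletal muscle score, 0.103 with the epithelial score and 0.132 without J6 and J7. For Traf2, Traf3 and Traf7 the log2 fold changes were 0.14, 0.10 and 0.01 (adjusted p = 0.359, 0.381 and 0.881).

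Of 16 other TNF receptor family genes, edgeR called 2 higher and 3 lower, where it called 9.52% of all genes higher and 6.61% lower (16.1% in either direction). Their median log2 fold change was 0.21, against 0.01 over all tested genes. Of the 16, DESeq2 called 6 and 9 had an unadjusted p under 0.05, against 23.2% and 34.9% of all genes. Relt, a receptor mutated in some forms of amelogenesis imperfecta, rose from 14.3 ± 1.82 to 66.0 ± 64.2 CPM (log2 fold change 2.21, adjusted p = 0.0354), and without K14J26 its log2 fold change was 1.29, and with the score of enamel genes in the model it was -0.24. Tnfrsf11b, the osteoprotegerin decoy receptor, rose from 12.1 ± 1.79 to 22.3 ± 4.92 CPM (0.88, adjusted p = 0.0171). Ngfr, the p75 neurotrophin receptor, fell from 39.6 ± 6.17 to 27.4 ± 3.30 CPM (-0.53, adjusted p = 0.0250). Tnfrsf21 fell by 0.44 and Ltbr by 0.32 on the log2 scale (adjusted p = 0.0330 and 0.0366). These 5 calls held in 3 to 5 of the 8 fits that left out an embryo. With the enamel, skeletal muscle or epithelial score in the model, or without J6 and J7, none of the 5 was called (edgeR quasi-likelihood). Without the embryos high in Xist only Relt kept its call (edgeR quasi-likelihood adjusted p = 0.0279). With the enamel score Tnfrsf21 was at -0.12, Ngfr at -0.32, Ltbr at -0.33 and Tnfrsf11b at 1.06. Cdkn1a, a cell cycle inhibitor and a marker of the enamel knot, rose from 227 to 585 CPM (1.36, adjusted p = 0.0247), but its value was 0.10 with the enamel score in the model (adjusted p = 0.580). It was highest in K14J26 at 941 CPM and lowest among mutants in K14J28 at 295 CPM.

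Genes known to respond to ectodysplasin went in both directions. Of 17, 14 were tested, and edgeR called 2 higher and 2 lower at an adjusted p under 0.05. It called 16.1% of all genes, 9.52% higher and 6.61% lower. The median log2 fold change of the 14 was -0.04, against 0.01 over all tested genes. Of these 14, DESeq2 called 5 and 7 had an unadjusted p under 0.05, where the shares of all genes were 23.2% and 34.9%. Ccn2, a matricellular growth factor gene, fell from 139 ± 11.3 to 66.2 ± 10.9 CPM (SD, n = 4 each; log2 fold change -1.07, adjusted p = 0.00485), with a call in all 8 fits that left out 1 embryo but not without both J6 and J7 (-1.04, adjusted p = 0.114). Fst, which encodes the activin inhibitor follistatin, fell from 15.5 ± 4.46 to 8.48 ± 2.48 CPM (-0.87, adjusted p = 0.0488), with overlapping groups and a call in 2 of the 8 fits. The Wnt ligand gene Wnt10a rose from 49.9 ± 8.70 to 98.1 ± 44.5 CPM (0.97, adjusted p = 0.0489), also with overlapping groups, and its call held in 1 of the 8 fits. Lrp4 rose from 104 ± 12.9 to 138 ± 13.6 CPM (0.41, adjusted p = 0.0308, edgeR's quasi-likelihood test for all), with a call in 3 of the 8 fits. With the enamel score in the model Ccn2 was at -0.73 (adjusted p = 0.0177), while Fst was at -0.26, Wnt10a at -0.12 and Lrp4 at 0.18, none of these 3 called. Wnt10b, also a Wnt ligand gene of this list, was at -1.26 on the log2 scale (adjusted p = 0.0605). Shh, the enamel knot ligand, was at 280 ± 39.4 and 362 ± 65.3 CPM (adjusted p = 0.104), and the transcription factor Foxi3 at 16.4 ± 2.36 and 13.0 ± 3.07 CPM (adjusted p = 0.204). Dkk4 had at most 13 counts in any embryo, and Fgf20, Cxcl10 and Cxcl11 had at most 9, 10 and 2 counts and did not enter the test.

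The genes known to act upstream of Eda, Edar or Edaradd numbered 11, and edgeR called 2 of them, both lower. Of all genes it called 16.1%, with 6.61% lower. DESeq2 called 6 of the 11, against 23.2% of all genes, and 5 had an unadjusted p under 0.05, against 34.9%. Lef1, the transcription factor that Eda expression in the tooth depends on, fell from 38.3 ± 8.37 to 19.9 ± 1.83 CPM (log2 fold change -0.95, adjusted p = 0.0104), while the log2 fold change of Eda was -0.01. Its relative Tcf7 fell by 0.75 on the log2 scale (adjusted p = 0.0151). Lef1 kept its call whichever of the 8 embryos was left out, and Tcf7 in 6 of 8 such fits. With the enamel score in the model they were at -0.58 and -0.36, neither called. The edgeR quasi-likelihood adjusted p was 0.184 and 0.239 with the epithelial score, and 0.114 and 0.151 without J6 and J7. Tcf7 also lost its call with the skeletal muscle score (adjusted p = 0.0711). Activin, which induces Edar, was represented by Inhba and Inhbb, at 0.28 and 0.15 on the log2 scale (adjusted p = 0.556 and 0.677). The activin receptor gene Acvr2a was at -0.32 and the Wnt ligand gene Wnt6 at 0.77 (adjusted p = 0.0552 and 0.0849). Trp63, the epithelial regulator, was at 436 and 505 CPM (log2 fold change 0.21, adjusted p = 0.0546). Of 8 enamel knot genes 7 were tested, and beside Cdkn1a only Fgf9 was called, with a log2 fold change of -1.66 (adjusted p = 0.0282; edgeR's quasi-likelihood test). The calls of Cdkn1a and Fgf9 each held in 4 of those 8 fits, and with the enamel score in the model Fgf9 was at -0.45 (adjusted p = 0.350). Thus edgeR called 2 of the 7 knot genes, where it called 16.1% of all genes. DESeq2 called 3 of the 7, and 5 had an unadjusted p under 0.05, against the same 23.2% and 34.9%. Fgf4, the knot ligand, had 0 to 25 counts per embryo (adjusted p = 0.0637).

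**Figure D5:**
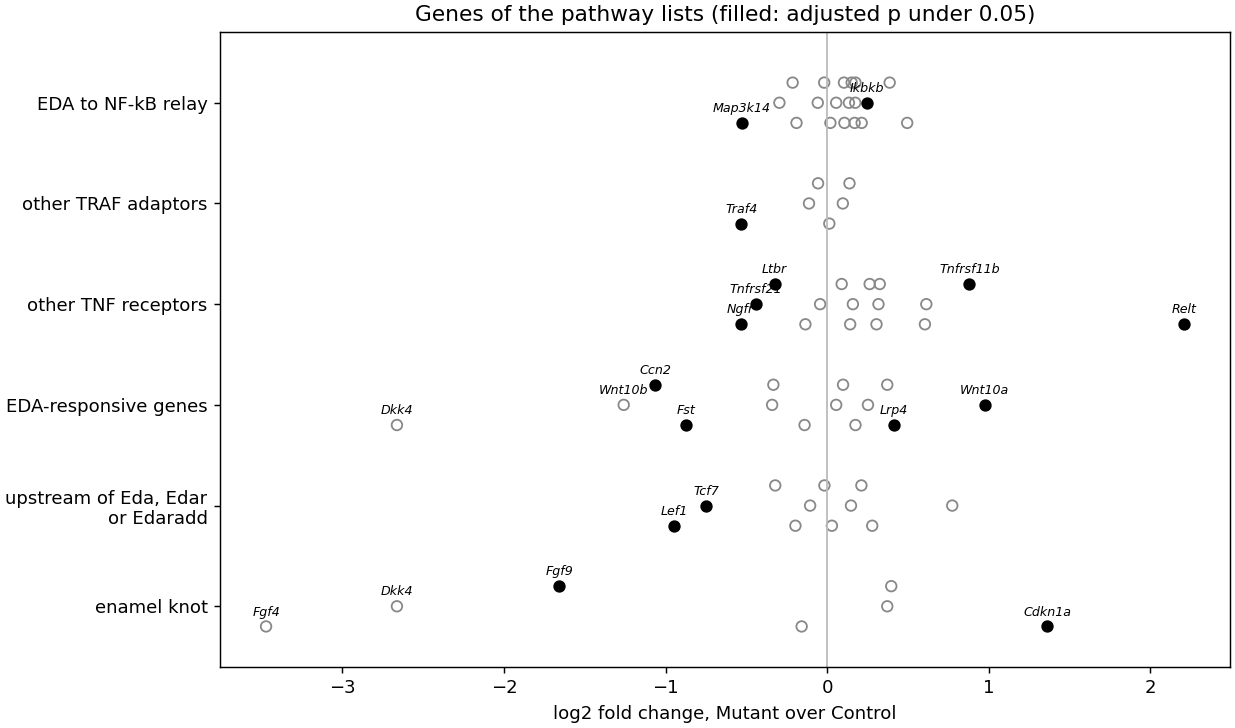
Log2 fold change, mutant over control (horizontal axis), of every tested gene of the 6 lists (rows; the spread within a row has no meaning). Filled points have an adjusted p under 0.05 and are named, as are genes past 1 on the log2 scale; in the row of the NF-kB relay 17 of 19 genes are open points.

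Sequence just before the start sites was searched for 2 short motifs on both strands, because the Notch pathway acts through Rbpj and because Lef1 acts upstream of Eda. The motifs were TGGGAA, the core of the Rbpj site, and CTTTGA, the core of Lef and Tcf sites, in the 300 bases that RefSeq gives for each start on GRCm38.p6 (250 before it and 50 after). All 6 genes matched this table, with 7 windows. The window of Eda held TGGGAA (on the opposite strand, 16 bases before the start), which 25.6% of all windows hold. Those of Edar (233 bases before the start) and of the second start of Tnfrsf19 held CTTTGA, which 16% of all windows hold. No window of Edaradd, Eda2r or Traf6 held either. The 250 bases before the start are shown for the ligand and its receptor, 5′ to 3′ on the strand of the gene, with the motif in capitals (for Eda its reverse complement); the Eda stretch is chrX:99975356-99975605 (plus strand) and that of Edar is chr10:58675697-58675946 (minus strand).
Eda: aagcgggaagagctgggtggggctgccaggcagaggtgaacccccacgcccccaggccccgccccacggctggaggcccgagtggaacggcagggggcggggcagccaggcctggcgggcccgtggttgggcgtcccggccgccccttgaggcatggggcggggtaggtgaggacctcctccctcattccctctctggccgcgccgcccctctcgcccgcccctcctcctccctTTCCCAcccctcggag
Edar: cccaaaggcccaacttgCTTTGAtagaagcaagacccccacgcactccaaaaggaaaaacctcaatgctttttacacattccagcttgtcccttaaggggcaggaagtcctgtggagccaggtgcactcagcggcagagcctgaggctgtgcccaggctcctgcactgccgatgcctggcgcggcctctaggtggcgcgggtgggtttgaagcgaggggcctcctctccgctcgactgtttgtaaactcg

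The genes whose pattern over the 8 embryos was most like that of each member were found by Pearson correlation of log2 CPM among 14731 genes with a mean of at least 1 CPM. These values describe 8 embryos in 2 groups, and with so many genes high values are found for any pattern. For Eda they were Mfhas1 (r = 0.954), Sdhaf3 (0.920) and Stc2 (0.918), and for Edar Maneal (0.954), Pramef12 (0.937) and Nrip2 (0.925). Edaradd was followed by Gm4737, Epha7 and Mpped1, each with r = 0.994, and 1199 genes had an r over 0.9 with it, against 7 for Eda, 4 for Edar, 210 for Eda2r, 279 for Tnfrsf19 and 227 for Traf6. For Eda2r the nearest were Emsy, Zfp263 and Oxsr1 (0.979, 0.978 and 0.977), for Tnfrsf19 Mmd, Hdac9 and Abcg8 (0.988, 0.980 and 0.979), and for Traf6 Sertad2, Txndc16 and Resf1 (0.995, 0.991 and 0.984).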

How the data were processed

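RNA-seq of lower first molars from 8 embryos was analysed. The authors prepared poly-A libraries, removed adapters with Trimmomatic, aligned the single-end reads with STAR to GRCm38 (GRCm38.p3 per the labels) and deposited raw counts per Ensembl gene. The counter was GenomicRanges by the methods of the study and featureCounts by the submitters' processing notes. The use of strand and the treatment of reads with several matches are not given in the sources used here.

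Symbols, positions and union exon lengths came from GENCODE M21 (GRCm38), where 42548 of the 43629 identifiers were found. A gene was kept if, in either group, 2 of its 4 embryos reached 10 counts (17129 genes). Scaling was by TMM, and edgeR 4.0.16 (R 4.3.3) gave the quasi-likelihood test of genotype alone; p-values were adjusted by Benjamini-Hochberg across the kept genes. Standard errors are the absolute log2 fold change over the root of the F value. CPM are counts relative to the scaled library size, logs add 0.1 CPM, and 3 counts correspond to 0.0998 to 0.166 CPM. Each embryo is a separate animal and was kept as its own sample. Between embryos of a group the chi-square per degree of freedom was 7.16 to 16.2 in control pairs and 31.5 to 301 in mutant pairs. Mutants thus differed more among themselves than controls did. This measure allows for counting noise only. Single values were compared by exact permutation over 70 arrangements.

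The 6 genes and the lists were chosen with earlier results of these data known. Named by rule were the members, Jag1, up to 6 called genes per list, genes of a list that the filter removed, genes overlapping a member, and the 3 nearest patterns; uncalled list genes named beside them were chosen after their values were seen. Protein sequences were not used here. The alternatives were other scalings, DESeq2 1.42.0, other filters, covariates, leaving out embryos, another pseudocount and another epithelial reference.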

Additional observations from a re-analysis of the deposited data

Results flagged for a closer look

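Tnfrsf19 was at 334 CPM in mutant K14J28, apart from the other 3 mutants, which lay between 294 and 298 CPM: the gap made up 0.910 of the range of the group, over the 95% critical value of Dixon's test for 4 samples, a limit that about 1 in 20 groups pass by chance. K14J28 was also the mutant with the least enamel transcript and the most cornified epithelium transcript, and the part of either was not tested.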

How the results depend on the processing

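Changes in direction concerned Eda, Edaradd, Relt and Wnt10a. The log2 fold change of Eda, near 0, ranged from -0.079 to 0.060 when each embryo was left out in turn, and was 0.089 with the epithelial gene score as a covariate and 0.020 without controls J6 and J7 (chosen after seeing the data, since both hold muscle transcript). Relative to Epcam and Cdh1 only, the log2 difference of Eda was 0.029. Edaradd went to 0.10 with the enamel gene score and 0.0058 with the epithelial gene score as a covariate, Relt to -0.24 and -0.0082 and Wnt10a to -0.12 and -0.11, with adjusted p of at least 0.635; the cause was not tested. DESeq2 placed Edaradd past the threshold at -0.60. Edar kept its sign and stayed short of the threshold in all 20 alternatives.

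Leaving out each embryo in turn gave log2 fold changes of -0.81 to -0.41 for Edar, -0.77 to -0.43 for Edaradd, 0.67 to 0.86 for Eda2r, -0.43 to -0.33 for Tnfrsf19 and -0.43 to -0.35 for Traf6. Scaling by library size only ended the calls of Ikbkb (0.14), Wnt10a (0.83) and Lrp4 (0.31), and those of Map3k14 (-0.62), Tnfrsf21 (-0.53) and Fst (-0.95), whose estimates were larger in size than under TMM. Upper-quartile scaling also ended that of Wnt10a (0.92), and no count filter those of Map3k14 (-0.53) and Ltbr (-0.33). Eda2r, Tnfrsf19 and Traf6 kept their sign in all 20 alternatives. When an embryo was left out they kept the call in 4, 4 and 7 of 8 fits, and they also lost it in the following alternatives. With the enamel gene score, the skeletal muscle score, the epithelial gene score or without J6 and J7, Eda2r was at 0.86, 0.76, 0.89 and 0.81, Tnfrsf19 at -0.19, -0.40, -0.16 and -0.41 and Traf6 at -0.46, -0.34, -0.41 and -0.31. Eda2r also did so without the embryos high in Xist, at 0.61. Relative log expression and upper-quartile scaling and the other filters kept all 3 calls.

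Over all genes, the main fit called 1631 higher and 1133 lower. Library size alone gave 864 higher and 1065 lower, DESeq2 2244 higher and 1718 lower, the enamel score 186 and 112, the muscle score 47 and 47, the epithelial score 15 and 6, and leaving out J6 and J7 3 and 4. With 1 embryo left out the counts ran from 250 to 2479 higher and from 170 to 1845 lower. Depth limits Eda2r and Edar most, with 50 and 82 counts in their lowest embryos. No analysis paired by litter was possible because the litter of each embryo is not given.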
